A study of Mus musculus with 8 samples.

Results

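The genes described here are 39 genes of mitosis and of the spindle checkpoint, taken as a list by name from 55385 genes counted in R1 mouse embryonic stem cells (mESCs). All 39 were found by their Ensembl identifiers, and all 39 were among the 17445 genes with enough counts to be tested. The list holds 7 genes for cyclins, CDK1 and its direct regulators, 7 for the Polo, Aurora and NIMA kinases and the chromosomal passenger complex, 6 for the spindle checkpoint and its target, 7 for the kinetochore and centromere, 4 for chromosome structure, cohesion and separation, and 8 for spindle motors, the spindle midzone and cytokinesis.

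The cells were wild-type R1 mESCs, an established line, grown without feeder cells in N2B27 medium with 2i and LIF. They were infected on 2 consecutive days with lentivirus carrying shRNA1 or shRNA2, independent hairpins against *Eftud2*, or nt-shRNA, a hairpin with no target. The cells were then kept for 3 days under puromycin, so all groups carry a hairpin vector and have been through selection. *Eftud2* encodes a GTPase of the U5 small nuclear ribonucleoprotein, a part of the spliceosome. The labels name 3 biological replicates for shRNA1, 3 for shRNA2 and 2 for nt-shRNA, all of 1 cell line, and p-values measure the spread between these libraries. Values per library are CPM, that is counts relative to the TMM-scaled total of the library, and a gene is called higher or lower when edgeR's quasi-likelihood test gave a Benjamini-Hochberg adjusted p under 0.05 over all 17445 genes.

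Entry into mitosis is driven by CDK1 bound to a B-type cyclin, which is held inactive by the kinase WEE1 and released by CDC25 phosphatases. Kinetochores then join chromosomes to spindle microtubules, and the spindle checkpoint keeps the activator CDC20 from switching on the anaphase-promoting complex until every chromosome is attached. The complex then marks cyclin B and securin for destruction, separase cuts cohesin, the sister chromatids part, and the cell divides. Most of these genes are transcribed in the G2 phase and in mitosis, and mESCs divide quickly, so their RNAs are abundant in such cells. In a bulk sample, fewer cells in mitosis and less RNA per mitotic cell cannot be told apart.

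Promoters of such genes often carry a CHR (cell cycle genes homology region), at which the DREAM and MuvB complexes bind, and boxes for the factor NF-Y. The promoter windows of 5 members are printed because these genes show the main patterns of the data: *Ccnb1* and *Ccnb2*, partners called in opposite directions with shRNA2, *Cdc20*, one of the most raised members, *Anln*, one of the most lowered, and *Cdca5*, the sororin gene named in the choice of the list. Each window is 300 bases from RefSeq (GRCm38.p6), 250 before the transcription start and 50 from it on, printed 5′ to 3′ on the gene's strand. Capitals mark the letters searched, TTTGAA or TTCGAA for the CHR and CCAAT for the NF-Y box, on either strand.
Ccnb1, chr13:100786437-100786736, minus strand: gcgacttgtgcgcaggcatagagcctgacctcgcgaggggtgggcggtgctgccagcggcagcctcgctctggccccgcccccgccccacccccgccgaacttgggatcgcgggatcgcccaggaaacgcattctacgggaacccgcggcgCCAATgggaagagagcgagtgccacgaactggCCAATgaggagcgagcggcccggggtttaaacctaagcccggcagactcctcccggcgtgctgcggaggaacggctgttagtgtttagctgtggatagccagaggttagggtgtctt
Ccnb2, chr9:70421505-70421804, minus strand: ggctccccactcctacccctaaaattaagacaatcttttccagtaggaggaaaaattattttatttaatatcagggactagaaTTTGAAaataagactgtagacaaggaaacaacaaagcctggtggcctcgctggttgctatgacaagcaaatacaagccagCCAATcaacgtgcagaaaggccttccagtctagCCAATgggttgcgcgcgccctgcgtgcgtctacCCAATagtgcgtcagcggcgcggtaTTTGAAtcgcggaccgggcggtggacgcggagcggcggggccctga
Cdc20, chr4:118437294-118437593, minus strand: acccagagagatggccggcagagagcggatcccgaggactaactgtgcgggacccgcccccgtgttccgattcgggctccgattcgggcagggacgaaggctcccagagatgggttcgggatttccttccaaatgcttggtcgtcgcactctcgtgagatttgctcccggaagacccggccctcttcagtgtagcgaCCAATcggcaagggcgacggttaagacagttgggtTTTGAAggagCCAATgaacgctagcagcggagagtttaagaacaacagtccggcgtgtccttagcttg
Anln, chr9:22389157-22389456, minus strand: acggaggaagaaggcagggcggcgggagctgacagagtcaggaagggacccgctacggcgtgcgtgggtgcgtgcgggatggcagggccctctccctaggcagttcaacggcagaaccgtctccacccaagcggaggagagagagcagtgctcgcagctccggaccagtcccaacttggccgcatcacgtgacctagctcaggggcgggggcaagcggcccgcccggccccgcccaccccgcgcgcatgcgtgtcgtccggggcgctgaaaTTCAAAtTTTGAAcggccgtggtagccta
Cdca5, chr19:6084847-6085146, plus strand: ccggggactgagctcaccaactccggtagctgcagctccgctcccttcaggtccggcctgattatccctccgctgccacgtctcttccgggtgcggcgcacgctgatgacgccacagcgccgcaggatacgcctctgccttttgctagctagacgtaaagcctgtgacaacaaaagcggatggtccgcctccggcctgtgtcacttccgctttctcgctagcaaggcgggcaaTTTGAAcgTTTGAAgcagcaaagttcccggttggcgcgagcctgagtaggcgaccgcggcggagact

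The *Ccnb1* window held 2 NF-Y boxes and no CHR letters, whereas the *Ccnb2* window held 3 NF-Y boxes and 2 CHR matches, 1 of them 4 bases after the start. *Cdc20* had 2 NF-Y boxes and 1 CHR match. The *Anln* and *Cdca5* windows each had 2 CHR matches and no NF-Y box, and the 2 CHR matches of *Cdca5* began 17 and 9 bases before the start. A window was given for 31 of the 39 members. *Ccna2*, *Wee1*, *Cdc25c*, *Aurkb*, *Incenp*, *Spc24*, *Tpx2* and *Kif20a* had none, and for 3 members with 2 windows the first listed was used. The CHR letters stood in the windows of 24 of the 31 members (77.4%), against 19.2% of all 32851 promoter windows of this length. CCAAT stood in 23 of 31 (74.2%), against 37.4% of all windows, and at least 2 CCAAT stood in 15 of 31 (48.4%), against 11.7%. TTCGAA reads the same on both strands and was rare, in 4 members (12.9%) and 1.6% of all windows. These letter matches are a description and do not show that a factor binds there.

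Total counts ran from 19569525 to 29871048 per library, and the 39 genes took between 0.676% and 0.761% of them. The targeted gene *Eftud2* was at 262 and 256 CPM with nt-shRNA, at 232, 229 and 225 with shRNA1 and at 198, 202 and 235 with shRNA2. All 6 knockdown libraries thus lay under the 2 control values. Its log2 fold change was -0.18 ± 0.07 (SE) with shRNA1 (edgeR adjusted p = 0.0514, not called) and -0.29 ± 0.07 with shRNA2 (edgeR adjusted p = 0.00122). The paper reports a larger fall by qPCR with either hairpin, more with shRNA2, and less EFTUD2 protein on western blots. Counts over the whole gene and qPCR are different measures, and the gap between them was not tested. All 8 defining pluripotency markers were above 10 CPM in every library, and their summed level was 4690 to 4720 CPM with nt-shRNA, 5270 to 5470 with shRNA1 and 6210 to 6310 with shRNA2. Of the 8, 6 had a positive and 2 a negative log2 fold change with either hairpin (median 0.15 with shRNA1 and 0.41 with shRNA2). *Nanog* rose, from 892 and 932 CPM with nt-shRNA to 1420, 1320 and 1290 with shRNA1 and 1570, 1490 and 1590 with shRNA2. *Pou5f1* went the other way, from 788 and 760 CPM with nt-shRNA to 587, 591 and 641 with shRNA1 and 614, 675 and 614 with shRNA2. Of 8 fibroblast markers, 4 were under 1 CPM in all libraries, among them *Col3a1*, *Dcn*, *Lum* and *Postn*, and the sum of the 8 was 21.3 and 23.1 CPM with nt-shRNA, 22.3 to 25 with shRNA1 and 15.4 to 19.3 with shRNA2. The largest part of this sum was *Pdgfrb*, at 8.84 to 18.5 CPM. Of the 4 tested fibroblast markers, 3 had a positive and 1 a negative log2 fold change with shRNA2 (median 0.33), with 1 called higher and 1 lower. The sum of 8 extraembryonic endoderm markers was 201 and 195 CPM with nt-shRNA, 175 to 196 with shRNA1 and 231 to 240 with shRNA2, above all other libraries. Most of this sum was *Lama1*, at 136 to 203 CPM over the libraries. Of the 5 tested markers of this list, 1 had a positive and 4 a negative log2 fold change with shRNA2 (median -0.28). The sum of 8 trophoblast markers was 182 and 186 CPM with nt-shRNA, 156 to 173 with shRNA1 and 138 to 147 with shRNA2, with the shRNA2 libraries lowest. Within it, *Krt7* was at 27.5 and 31 CPM with nt-shRNA, at 15.8, 18.1 and 22.5 with shRNA1 and at 4.88, 3.74 and 6.01 with shRNA2. Of the 7 tested markers of this list, 2 had a positive and 5 a negative log2 fold change with shRNA2 (median -0.2). The part of these shifts in the results below was not tested.

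Neither hairpin moved the 39 genes together. Their summed level was 7238 and 7370 CPM with nt-shRNA, 7128, 6807 and 6892 with shRNA1, and 7016, 7053 and 7504 with shRNA2, so the shRNA1 sums were below the controls and the shRNA2 sums lay on both sides of them. The median log2 fold change of the members was -0.03 with shRNA1, where the median of all genes tested was -0.01, and -0.01 with shRNA2, where that of all genes was 0. With shRNA1, 3 members (7.69%) were higher and 8 (20.5%) lower, where 13.8% and 17.1% of all genes tested were, and 28 were not called. These shRNA1 counts depended on single libraries. The higher count was 0 without shRNA1 replicate 1 or nt-shRNA replicate 1, and the lower count was 5 without nt-shRNA replicate 2. Without nt-shRNA replicate 1, 2948 of all genes were called, against 5388 with all libraries. With shRNA2, 13 members (33.3%) were higher and 10 (25.6%) lower, where 27.2% and 28.7% of all genes were, and 16 were not called. No member changed by as much as 2-fold, and the member log2 fold changes ran from -0.40 to 0.25 with shRNA1 and from -0.59 to 0.47 with shRNA2.

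**Figure D1:**
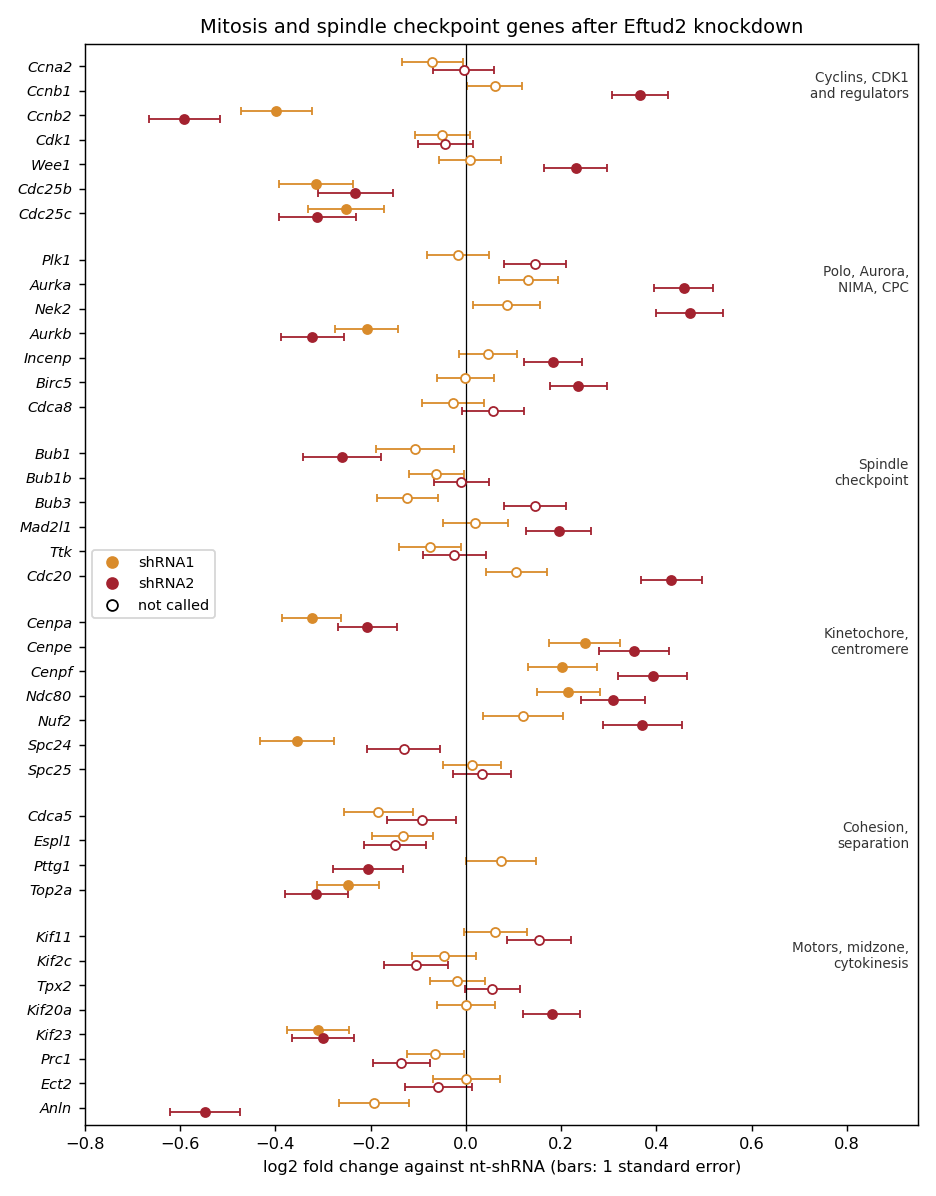
Log2 fold change of each of the 39 members against nt-shRNA (x axis, bars 1 SE) for shRNA1 and shRNA2, with members grouped by role on the y axis and open points for members not called by edgeR. With shRNA2, called members lie on both sides of 0 in most groups, from -0.59 for Ccnb2 to 0.47 for Nek2. With shRNA1, only the kinetochore and centromere group has called members on both sides.

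The members' shares of calls were near the background with either hairpin, and the call itself does not set them apart from other genes. The libraries of the 2 groups did not overlap for 6 members above and 13 below the controls with shRNA1 (56.8% of all genes in either direction), and for 17 above and 12 below with shRNA2 (71.4%). Both comparisons share the 2 nt-shRNA libraries, so their calls are given side by side. The higher members with shRNA1 were *Cenpe*, *Cenpf* and *Ndc80*, and the lower ones *Ccnb2*, *Cdc25b*, *Cdc25c*, *Aurkb*, *Cenpa*, *Spc24*, *Top2a* and *Kif23*. With shRNA2 the higher members were *Ccnb1*, *Wee1*, *Aurka*, *Nek2*, *Incenp*, *Birc5*, *Mad2l1*, *Cdc20*, *Cenpe*, *Cenpf*, *Ndc80*, *Nuf2* and *Kif20a*, and the lower ones *Ccnb2*, *Cdc25b*, *Cdc25c*, *Aurkb*, *Bub1*, *Cenpa*, *Pttg1*, *Top2a*, *Kif23* and *Anln*. Without the TMM scaling, on library size alone, the members had 9 higher and 4 lower calls with shRNA1, where the median of all genes moved to 0.11 and the share of higher calls among all calls from 44.7% to 70.5%, and with shRNA2 the members had 17 higher and 6 lower calls and the share of higher calls moved from 48.7% to 58.9%.

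Compared directly, shRNA2 libraries had 13 members higher and 3 lower than shRNA1 libraries, where 16.9% of all genes were higher and 18.7% lower, and the members had 33.3% and 7.69%. The member median was 0.08 against 0 for all genes, and 28 of the 39 members had a positive difference. The higher members were *Ccnb1*, *Wee1*, *Plk1*, *Aurka*, *Nek2*, *Birc5*, *Bub3*, *Mad2l1*, *Cdc20*, *Cenpf*, *Nuf2*, *Spc24* and *Kif20a*, and the lower ones *Ccnb2*, *Pttg1* and *Anln*. The libraries did not overlap for 14 members above and 2 below (47.8% of all genes in either direction). The count of higher members was 8 without shRNA1 replicate 2. Within the shRNA2 group replicate 3, which had the most *Eftud2* and the highest member sum, was the highest of the 3 libraries in 9 of the 10 members lowered by shRNA2, in 8 of the 13 raised ones and in 12 of the 16 not called.

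The cyclins split. Cyclin B2 fell with both hairpins, cyclin B1 rose with shRNA2, and cyclin A2 and *Cdk1* were not called in any comparison. *Ccnb2* (chr9:70407692-70421547, minus strand) was at 200 and 204 CPM with nt-shRNA, at 155, 146 and 159 with shRNA1, and at 132, 120 and 150 with shRNA2. All 6 knockdown libraries were below both controls, although the 2 hairpins overlapped each other. The log2 fold change was -0.40 ± 0.07 with shRNA1 (SE; edgeR adjusted p = 0.000471) and -0.59 ± 0.07 with shRNA2 (edgeR adjusted p = 1.85e-06), the farthest from 0 of all members in either comparison. *Ccnb1* (chr13:100778650-100786570, minus strand) was at 298 and 305 CPM with nt-shRNA, at 320, 319 and 303 with shRNA1, and at 375, 393 and 396 with shRNA2. Its shRNA2 libraries were above all others, and the difference was 0.36 ± 0.06 against nt-shRNA (edgeR adjusted p = 3.29e-05) and 0.30 ± 0.05 against shRNA1 (edgeR adjusted p = 0.000216). With shRNA1 it was 0.06 ± 0.06 (edgeR adjusted p = 0.46).

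*Ccna2*, the cyclin that acts from S phase into early mitosis, had the smallest change with shRNA2 of all members. It was at 207 and 204 CPM with nt-shRNA, at 207, 193 and 186 with shRNA1 and at 194, 202 and 217 with shRNA2, a log2 fold change of -0.01 with an interval of 2 SE either side from -0.13 to 0.12. *Cdk1*, the kinase itself, was at 209 and 212 CPM with nt-shRNA, at 210, 196 and 204 with shRNA1 and at 200, 203 and 210 with shRNA2. Its difference between the hairpins, 0.01 with an interval from -0.10 to 0.11, was the smallest of the members. For both genes the libraries of the 3 groups overlapped.

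The regulators of CDK1 moved in opposite ways with shRNA2. The phosphatase genes fell with both hairpins: *Cdc25b* by 0.31 on the log2 scale with shRNA1 and by 0.23 with shRNA2, and *Cdc25c* by 0.25 and by 0.31. *Cdc25c* was at 50 and 48.2 CPM with nt-shRNA, at 41.3, 41 and 41.4 with shRNA1 and at 37.1, 37.1 and 44.5 with shRNA2, and the control libraries were above all others. *Wee1*, the opposing kinase, was at 73.6 and 75.5 CPM with nt-shRNA, at 75.8, 76.5 and 72.9 with shRNA1 and at 85.3, 92.8 and 84.3 with shRNA2. It rose with shRNA2 by 0.23 ± 0.07 (edgeR adjusted p = 0.00563) and its change with shRNA1 was 0.01 ± 0.07 (edgeR adjusted p = 0.938). The protein-coding genes *Spef1* and *Gm3550*, on the opposite strands, overlap *Cdc25b* and *Cdc25c*, and the counting used no strand.

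Several of these calls were lost with fewer libraries, and the fold changes moved by differing amounts but kept their direction. The *Cdc25c* change with shRNA1 was -0.22 to -0.28 without shRNA1 replicate 1 or 2 or either control, where its call was lost (edgeR adjusted p from 0.0558 to 0.162). With shRNA2, *Cdc25b* lost its call at -0.18 without shRNA2 replicate 2 (0.0587) and at -0.25 and -0.22 without either control (0.0603 and 0.0888), and *Wee1* at 0.21 without nt-shRNA replicate 1 (0.0664). On library size alone the calls of *Cdc25c* (-0.14, 0.208) and *Cdc25b* (-0.20, 0.0578) with shRNA1 and of *Cdc25b* with shRNA2 (-0.14, 0.13) were lost, and *Ccnb1* was called higher with shRNA1 (0.17, 0.0268). The *Ccnb2* difference between the hairpins, -0.19 (edgeR adjusted p = 0.0324), was lost at -0.17 to -0.18 without shRNA1 replicate 1 or 3 or shRNA2 replicate 1 (0.0853 to 0.0985) and at -0.12 without shRNA2 replicate 2 (0.181).

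Among the mitotic kinases, Aurora A rose and Aurora B fell. *Aurka*, whose kinase acts at centrosomes and spindle poles, was at 108 and 114 CPM with nt-shRNA, at 122, 124 and 118 with shRNA1 and at 145, 155 and 156 with shRNA2. The groups did not overlap and stood in that order. The change was 0.46 ± 0.06 with shRNA2 (edgeR adjusted p = 4.25e-06) and 0.13 ± 0.06 with shRNA1 (edgeR adjusted p = 0.114, not called), and the difference between the hairpins was 0.33 ± 0.05 (edgeR adjusted p = 0.000178). *Aurkb*, the kinase of the chromosomal passenger complex, was at 115 and 121 CPM with nt-shRNA, at 101, 96.4 and 108 with shRNA1 and at 88.9, 96 and 97.9 with shRNA2. Both hairpins lay below the controls, by 0.21 (log2 fold change -0.21 ± 0.07, edgeR adjusted p = 0.0221) and 0.32 (-0.32 ± 0.07, edgeR adjusted p = 4e-04), and they did not differ past the threshold from each other (-0.12 ± 0.06, edgeR adjusted p = 0.147).

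*Nek2*, a kinase of centrosome separation, had the largest rise of any member with shRNA2. It was at 59 and 61 CPM with nt-shRNA, at 66.1, 63.8 and 61.4 with shRNA1 and at 80.7, 89.5 and 79.2 with shRNA2, so that the shRNA2 libraries stood above all others. The change was 0.47 ± 0.07 (edgeR adjusted p = 1.45e-05), against 0.09 ± 0.07 with shRNA1 (edgeR adjusted p = 0.379). *Plk1*, the Polo kinase of many mitotic steps, was at 119 and 126 CPM with nt-shRNA, at 119, 117 and 126 with shRNA1 and at 127, 143 and 135 with shRNA2. It was not called against nt-shRNA with shRNA2 (0.15, edgeR adjusted p = 0.0631) and differed between the hairpins by 0.16 (edgeR adjusted p = 0.036).

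The other subunits of the chromosomal passenger complex did not follow *Aurkb*. *Incenp*, the scaffold, rose by 0.18 ± 0.06 with shRNA2 (edgeR adjusted p = 0.0159), and *Birc5* (survivin) by 0.24 ± 0.06 (edgeR adjusted p = 0.00251). *Birc5* was at 116 and 112 CPM with nt-shRNA, at 116, 116 and 110 with shRNA1 and at 130, 137 and 137 with shRNA2, and its change with shRNA1 was 0.00 ± 0.06. *Cdca8* (borealin) was not called in any comparison, with 0.06 under shRNA2 and an interval of 2 SE either side from -0.07 to 0.19. Of the 7 genes in this group, 4 were higher and 1 lower with shRNA2, where 27.2% and 28.7% of all genes were, and 1 was lower with shRNA1, where 17.1% were.

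The *Aurkb* change with shRNA1 was -0.17 to -0.24 without shRNA1 replicate 1 or 2 or either control, where its call was lost (edgeR adjusted p from 0.0609 to 0.177), and -0.10 on library size alone (0.286). The *Incenp* call with shRNA2 was lost at 0.15 without nt-shRNA replicate 2 (0.145), and its difference between the hairpins, 0.14 (0.056), was called with DESeq2 (0.0481), with replicate numbers added as a block (0.0425) and without shRNA1 replicate 3 (0.0145). *Plk1* lost its difference between the hairpins without any 1 of 6 libraries, all but shRNA1 replicate 3 and shRNA2 replicate 1 (0.12 to 0.16, adjusted p from 0.0535 to 0.144), on library size alone (0.0742), with no filter on low counts (0.0954) and with only the 2 groups compared (0.053). It was called higher with shRNA2 without either of those 2 libraries (0.0439 and 0.0346), on library size alone (0.23, 0.00479) and with at least 10 counts in every library (0.17, 0.0272). With shRNA1, *Aurka* was called higher on library size alone (0.24, 0.00617) and with at least 10 counts in every library (0.16, 0.046), and *Nek2* (0.20, 0.0354) and *Incenp* (0.16, 0.043) on library size alone.

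Of the 6 spindle checkpoint genes, 0 were called with shRNA1 by edgeR or by DESeq2, 0 had an unadjusted edgeR p under 0.05 there, and with shRNA2 *Mad2l1* and *Cdc20* were higher and *Bub1* lower. Of all genes, 13.8% were higher and 17.1% lower with shRNA1 and 27.2% and 28.7% with shRNA2, and with 6 genes these counts do not set the group apart. *Cdc20*, the target of the checkpoint and an activator of the anaphase-promoting complex, was at 203 and 197 CPM with nt-shRNA, at 203, 216 and 226 with shRNA1 and at 255, 280 and 273 with shRNA2. The shRNA2 libraries were above all others, with a change of 0.43 ± 0.06 (edgeR adjusted p = 1.39e-05), and the change with shRNA1 was 0.11 ± 0.06 (edgeR adjusted p = 0.219). The difference between the hairpins was 0.32 ± 0.06 (edgeR adjusted p = 0.000267). Its span on the minus strand overlaps the protein-coding gene *Elovl1* on the plus strand. *Mad2l1*, which binds and inhibits CDC20, was at 162 and 157 CPM with nt-shRNA, at 175, 162 and 148 with shRNA1 and at 175, 187 and 187 with shRNA2, a change of 0.20 ± 0.07 with shRNA2 (edgeR adjusted p = 0.0208).

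*Bub1*, a kinase that recruits checkpoint proteins to kinetochores, was at 171 and 182 CPM with nt-shRNA, at 177, 161 and 155 with shRNA1 and at 143, 132 and 167 with shRNA2. It fell with shRNA2 (-0.26 ± 0.08, edgeR adjusted p = 0.0107), and the highest shRNA2 library came close to the lower control. *Bub3*, the partner of BUB1 and BUBR1, was at 162 and 148 CPM with nt-shRNA, at 136, 143 and 149 with shRNA1 and at 167, 180 and 168 with shRNA2. It was not called against the controls with either hairpin (-0.12 and 0.15), and it differed between the hairpins by 0.27 ± 0.06 (edgeR adjusted p = 0.00151). The shRNA2 value passed the threshold on library size alone (0.23, edgeR adjusted p = 0.00333), with at least 10 counts in every library (0.17, 0.0266) and without shRNA1 replicate 3 (0.14, 0.043). *Bub1b* (BUBR1) and *Ttk* (the MPS1 kinase) were not called in any comparison, and their log2 fold changes lay between -0.08 and 0.05. On library size alone *Cdc20* was called higher with shRNA1 (0.22, edgeR adjusted p = 0.0111). The *Bub1* call was lost at -0.18 without shRNA2 replicate 2, at -0.22 without nt-shRNA replicate 2 and at -0.17 on library size alone (edgeR adjusted p = 0.0545, 0.098 and 0.0912), and its difference between the hairpins (-0.15, 0.113) was called with no filter (0.0291) and without shRNA2 replicate 3 (-0.25, 0.0063). *Mad2l1* was lost with shRNA2 at 0.21 and 0.17 without either control (0.069 and 0.137), and its difference between the hairpins, 0.18, without shRNA1 replicate 2 or 3 or shRNA2 replicate 2 or 3 (0.11 to 0.18, adjusted p from 0.0681 to 0.138) and on library size alone (0.0606).

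Of the 7 kinetochore and centromere genes, *Cenpe*, *Cenpf* and *Ndc80* were higher with shRNA1 and 2 were lower. Of all genes, 13.8% were higher and 17.1% lower there. With shRNA2, 4 of the 7 were higher and 1 lower, where 27.2% and 28.7% of all genes were. *Cenpf*, a large protein of the outer kinetochore, was at 251 and 284 CPM with nt-shRNA, at 335, 288 and 299 with shRNA1 and at 357, 333 and 363 with shRNA2. All knockdown libraries were above both controls, by 0.20 ± 0.07 with shRNA1 (edgeR adjusted p = 0.0411) and 0.39 ± 0.07 with shRNA2 (edgeR adjusted p = 0.000155). *Cenpe*, the kinesin that carries chromosomes to the spindle equator, was at 124 and 135 CPM with nt-shRNA, at 170, 144 and 148 with shRNA1 and at 162, 159 and 175 with shRNA2, with changes of 0.25 ± 0.07 (edgeR adjusted p = 0.015) and 0.35 ± 0.07 (edgeR adjusted p = 0.000494). *Cenpa*, the histone H3 variant that marks centromeres, went the other way. It was at 203 and 198 CPM with nt-shRNA, at 164, 155 and 162 with shRNA1 and at 164, 172 and 185 with shRNA2, with changes of -0.32 ± 0.06 (edgeR adjusted p = 0.00059) and -0.21 ± 0.06 (edgeR adjusted p = 0.0082).

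NDC80 is a complex of 4 proteins that grips microtubules, with NDC80 and NUF2 on the microtubule side and SPC24 and SPC25 on the chromosome side. *Ndc80* was at 59.3 and 62.1 CPM with nt-shRNA, at 72.4, 72.6 and 66.6 with shRNA1 and at 77.3, 73.9 and 74.4 with shRNA2, with changes of 0.22 ± 0.07 (edgeR adjusted p = 0.0194) and 0.31 ± 0.07 (edgeR adjusted p = 0.000657). *Nuf2* was at 42 and 43.8 CPM with nt-shRNA, at 52.4, 45.8 and 41.8 with shRNA1 and at 55, 54.6 and 56.6 with shRNA2, and rose with shRNA2 by 0.37 ± 0.08 (edgeR adjusted p = 0.000909). *Spc24* was at 58.7 and 60.7 CPM with nt-shRNA, at 44.6, 45.9 and 49.5 with shRNA1 and at 50.3, 59.3 and 54.1 with shRNA2. It fell with shRNA1 (-0.35 ± 0.08, edgeR adjusted p = 0.00169) and was not called with shRNA2 (-0.13 ± 0.08, edgeR adjusted p = 0.157). *Spc25* was not called in any comparison, with log2 values of 0.01, 0.03 and 0.02.

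The 3 higher calls with shRNA1 were lost with fewer libraries. The *Ndc80* change stayed at 0.18 to 0.25 without shRNA1 replicate 1 or 2 or either control, where the call was lost (edgeR adjusted p from 0.0621 to 0.18). *Cenpe* was at 0.17 without shRNA1 replicate 1 (0.0873) and at 0.19 without nt-shRNA replicate 1 (0.198). *Cenpf* was at 0.14 and 0.12 without these libraries (0.19 and 0.41), and its call was also lost at 0.21 without shRNA2 replicate 1 (0.0529) and at 0.20 with the replicate block (0.0554). On library size alone *Nuf2* was called higher with shRNA1 (0.23, 0.0415). With shRNA2, *Cenpa* was lost at -0.16 without shRNA2 replicate 1 (0.0601), at -0.19 without nt-shRNA replicate 1 (0.0691) and at -0.12 on library size alone (0.11), and *Spc24* was called lower without shRNA2 replicate 2 (0.0393). Between the hairpins, *Cenpf* (0.19), *Nuf2* (0.25) and *Spc24* (0.22) were higher with shRNA2. The *Cenpf* call was lost at 0.15 to 0.18 without shRNA1 replicate 2 or 3 or shRNA2 replicate 1 or 3 (0.0759 to 0.133) and on library size alone (0.0591), the *Nuf2* call at 0.17 without shRNA1 replicate 3 (0.076), and the *Spc24* call at 0.16 to 0.21 without shRNA1 replicate 1 or 2 or shRNA2 replicate 2 (0.062 to 0.0991). *Cenpe* was called higher with shRNA2 than with shRNA1 without shRNA1 replicate 1 (0.18, 0.0436).

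**Figure D2:**
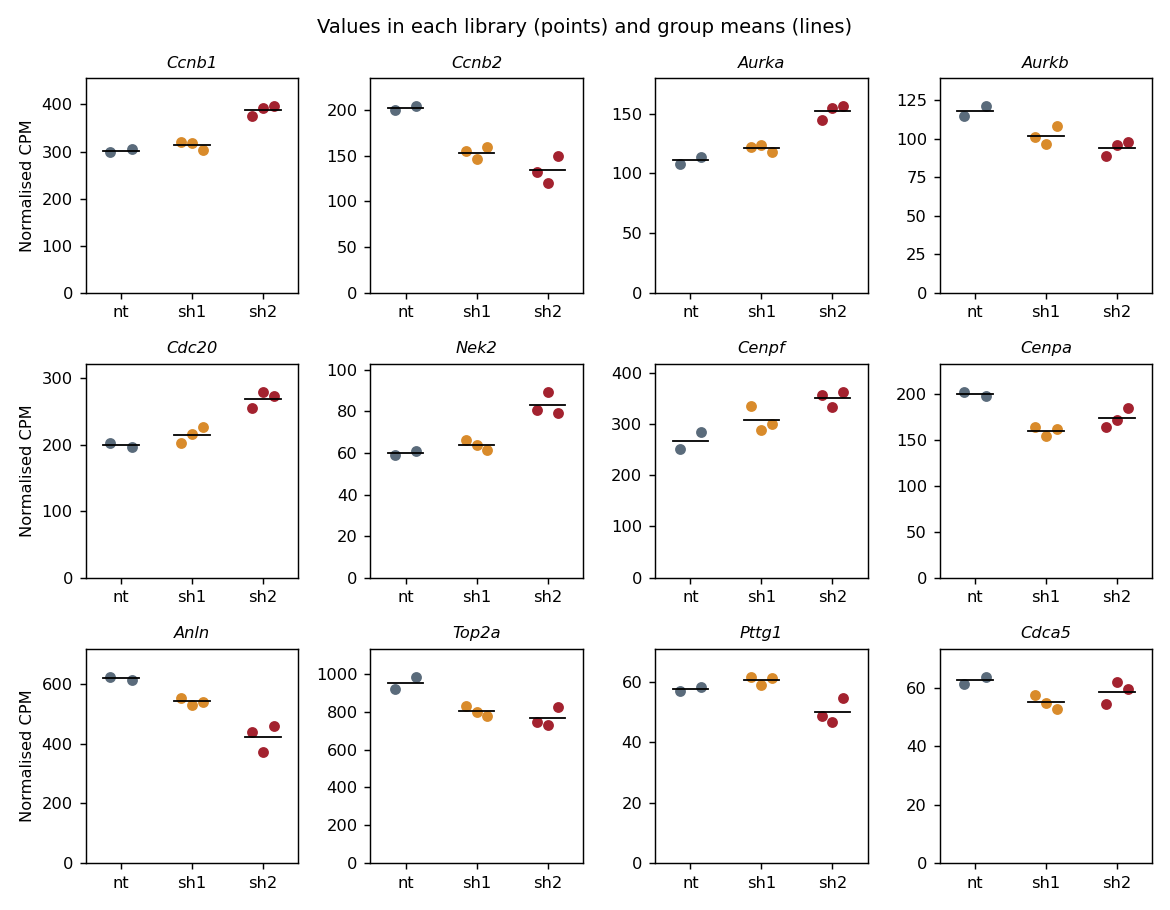
TMM-normalised CPM (y axis, from 0) in each library for 12 members, with points for libraries of nt-shRNA (nt, n = 2), shRNA1 (sh1, n = 3) and shRNA2 (sh2, n = 3) and lines for group means. Ccnb1, Aurka, Cdc20 and Nek2 are highest with shRNA2, Ccnb2, Anln and Aurkb are lowest there, and the Cdca5 libraries lie between 52.8 and 63.9.

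*Cdca5* (chr19:6084983-6091777, plus strand) encodes sororin, which protects cohesin from release until anaphase and whose RNA is known to be sensitive to the loss of splicing factors. It was at 61.3 and 63.9 CPM with nt-shRNA, at 57.7, 54.8 and 52.8 with shRNA1 and at 54.4, 62.2 and 59.5 with shRNA2. The shRNA1 libraries were all below the controls, and the shRNA2 libraries overlapped them. *Cdca5* was not called in any comparison: the log2 fold change was -0.18 ± 0.07 with shRNA1 (edgeR adjusted p = 0.0605), with an interval of 2 SE either side from -0.33 to -0.04, and -0.09 ± 0.07 with shRNA2 (edgeR adjusted p = 0.29), from -0.24 to 0.05. Without shRNA2 replicate 2 in the shared estimate of spread, the shRNA1 value passed the threshold (edgeR adjusted p = 0.0415). Its principal transcript in GENCODE M21 has 5 introns, of 189, 912, 84, 3463 and 123 bases from 5′ to 3′, 3 of them under 200. The counts are over exons of the whole gene, so the splicing of these introns was not measured here.

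Of the 4 genes for chromosome structure, cohesion and separation, 1 fell with shRNA1, where 17.1% of all genes were lower, and 2 fell with shRNA2, where 28.7% were. *Pttg1*, the gene of securin, was at 57.2 and 58.2 CPM with nt-shRNA, at 61.8, 58.9 and 61.4 with shRNA1 and at 48.8, 46.7 and 54.7 with shRNA2. It stood above the controls in the shRNA1 libraries without a call (0.07, edgeR adjusted p = 0.474), fell with shRNA2 (-0.21 ± 0.07, edgeR adjusted p = 0.0237) and differed between the hairpins by -0.28 ± 0.07 (edgeR adjusted p = 0.00323). *Espl1*, the gene of separase, the protease that securin holds back, was not called, with -0.13 (edgeR adjusted p = 0.123) and -0.15 (edgeR adjusted p = 0.0547). *Top2a*, the topoisomerase that untangles sister chromatids, was the most counted member, at 922 and 988 CPM with nt-shRNA, 831, 803 and 778 with shRNA1 and 749, 731 and 825 with shRNA2. It fell with both hairpins, with -0.25 ± 0.07 (edgeR adjusted p = 0.00705) and -0.31 ± 0.07 (edgeR adjusted p = 0.000447). The *Pttg1* change with shRNA2 was -0.15 to -0.22 without shRNA2 replicate 1 or 2 or either control, where the call was lost (0.0749 to 0.115), and -0.12 on library size alone (0.2). The *Top2a* call with shRNA1 was lost at -0.20 without nt-shRNA replicate 2 (0.103) and at -0.13 on library size alone (0.124). *Espl1* was called lower with shRNA2 with the replicate block (-0.19, 0.0131), with no filter (-0.17, 0.029) and without shRNA1 replicate 3 (0.0355) or shRNA2 replicate 3 (0.0189), and with shRNA1 with the replicate block (-0.17, 0.0343).

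In the group of motors, midzone and cytokinesis genes, the largest change with shRNA2 was in the gene of anillin, which links actin, septins and the contractile ring. *Anln* (chr9:22332012-22389188, minus strand) was at 624 and 613 CPM with nt-shRNA, at 554, 529 and 540 with shRNA1 and at 438, 371 and 459 with shRNA2. The 3 groups did not overlap. The change was -0.55 ± 0.07 with shRNA2 (edgeR adjusted p = 3.56e-06) and -0.36 ± 0.07 between the hairpins (edgeR adjusted p = 0.00043), and with shRNA1 it was -0.19 ± 0.07, just outside the threshold (edgeR adjusted p = 0.0512). *Kif23*, the midzone kinesin of cytokinesis, was at 153 and 167 CPM with nt-shRNA, at 127, 124 and 136 with shRNA1 and at 131, 123 and 137 with shRNA2. It fell to the same degree with both hairpins (-0.31 and -0.30, both ± 0.07), and the difference between them was 0.01 with an interval of 2 SE either side from -0.11 to 0.13.

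*Kif20a*, a midzone kinesin that positions the passenger complex, was at 203 and 206 CPM with nt-shRNA, at 212, 202 and 200 with shRNA1 and at 219, 238 and 238 with shRNA2. With shRNA1 its change was the smallest of all members, 0.00 with an interval from -0.12 to 0.12, and with shRNA2 it rose by 0.18 ± 0.06 (edgeR adjusted p = 0.0163). Its span overlaps *Cdc23* on the opposite strand. The bipolar kinesin gene *Kif11*, the microtubule depolymerase gene *Kif2c*, the Aurora A activator gene *Tpx2*, the midzone bundling gene *Prc1* and *Ect2*, the exchange factor of the contractile ring, were not called in any comparison. Their log2 fold changes lay between -0.06 and 0.06 with shRNA1 and between -0.14 and 0.15 with shRNA2.

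The *Anln* value with shRNA1 passed the threshold under 5 of the 15 alternatives, at -0.17 to -0.22: with no filter (edgeR adjusted p = 0.00973), with the replicate block (0.0186), with only the 2 groups compared (0.0462) and without shRNA2 replicate 2 (0.0139) or 3 (0.0357). The *Kif20a* call with shRNA2 was lost at 0.17 and 0.19 without either control (0.107 and 0.0749) and at 0.16 with no filter (0.0561), and its difference between the hairpins, 0.18, at 0.17 without shRNA1 replicate 2 (0.0506). With shRNA2, *Kif11* was called higher without shRNA1 replicate 3, shRNA2 replicate 2 or nt-shRNA replicate 2 (0.0362 to 0.0419), on library size alone (0.00606) and with at least 10 counts in every library (0.0278), and *Tpx2* on library size alone (0.15, 0.0367). *Prc1* was called lower with the replicate block (0.0433) and without shRNA1 replicate 3 or shRNA2 replicate 3 (0.0432 and 0.0285), and *Kif2c* with the replicate block (0.0423) and without shRNA2 replicate 3 (0.0487).

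Levels of partner genes were also compared within each library as ratios of counts per exonic base, which do not depend on the scaling between libraries. The size of a ratio also depends on the annotated exonic lengths, which are the same for every library. A ratio also shifts when 1 partner alone moves, and *Ccnb1* and *Aurka* were not called with shRNA1, nor *Spc24* with shRNA2. The pairs were chosen after the values of their genes had been seen, so the ratios are a description and carry no test. *Ccnb1* to *Ccnb2* was 0.541 and 0.542 with nt-shRNA, 0.747, 0.795 and 0.694 with shRNA1, and 1.03, 1.19 and 0.956 with shRNA2. *Aurka* to *Aurkb* was 1.09 and 1.1 with nt-shRNA, 1.4, 1.5 and 1.27 with shRNA1, and 1.9, 1.88 and 1.85 with shRNA2. In both pairs the 3 groups did not overlap and stood in the same order. *Cenpe* to *Cenpa* was 0.414 and 0.464 with nt-shRNA, 0.621 to 0.706 with shRNA1 and 0.63 to 0.671 with shRNA2, where the hairpins overlapped each other. *Ndc80* to *Spc24* was 0.4 and 0.405 with nt-shRNA, 0.533 to 0.644 with shRNA1 and 0.494 to 0.609 with shRNA2.

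**Figure D3:**
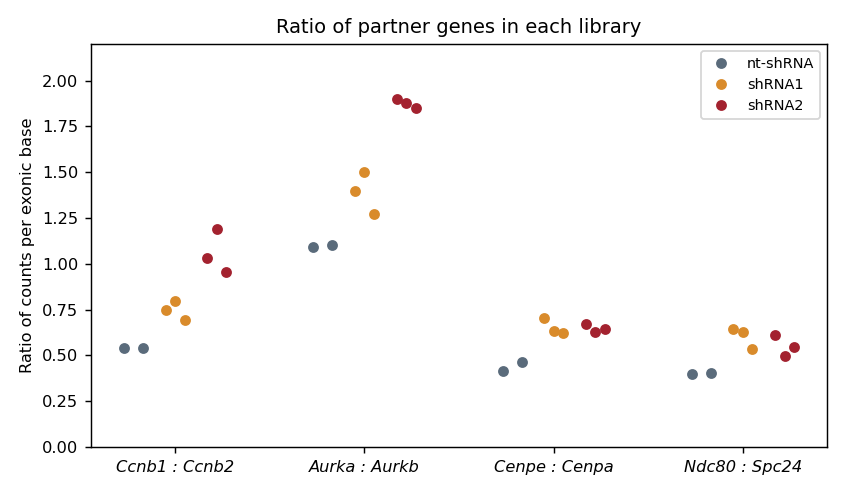
Ratio of counts per exonic base of 4 gene pairs (y axis, from 0) in each library, with points for nt-shRNA (n = 2), shRNA1 (n = 3) and shRNA2 (n = 3). Ccnb1 to Ccnb2 goes from 0.541 in a control to 1.19 in an shRNA2 library, and in all 4 pairs every knockdown library is above both controls.

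Per exonic length, the members were well expressed and varied widely. The exonic length pools all annotated exons of a gene and can cover introns of its principal transcript. For *Ccnb1* it came to 6 merged blocks although that transcript has 8 introns, and for *Ccnb2* to 9 blocks with 8 introns. The order of the genes thus also depends on the annotation. In nt-shRNA cells *Ccnb2* stood highest, at 132 ± 1.84 CPM per kb (SD, n = 2), above 98.2% of tested genes, followed by *Cdc20* at 107 ± 2.39 and *Top2a* at 106 ± 5.18, which do not differ beyond their spread. With shRNA2, *Cdc20* stood highest at 144 ± 6.88 (n = 3), *Ccnb1* was at 92 ± 2.61, *Ccnb2* at 87.6 ± 9.8 and *Top2a* at 85.2 ± 5.51, and the last 3 do not differ beyond their spread. *Nuf2* was the lowest member with nt-shRNA, at 6.76 ± 0.198 (above 62% of tested genes), and with shRNA1, at 7.36 ± 0.844. With shRNA2 *Nuf2* was at 8.74 ± 0.169 and *Cdc25c* at 8.04 ± 0.867, which do not differ beyond their spread. Across the 39 members the Spearman correlation of the shRNA2 change with log2 CPM in nt-shRNA was -0.11, a description over genes that share the same libraries.

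**Figure D4:**
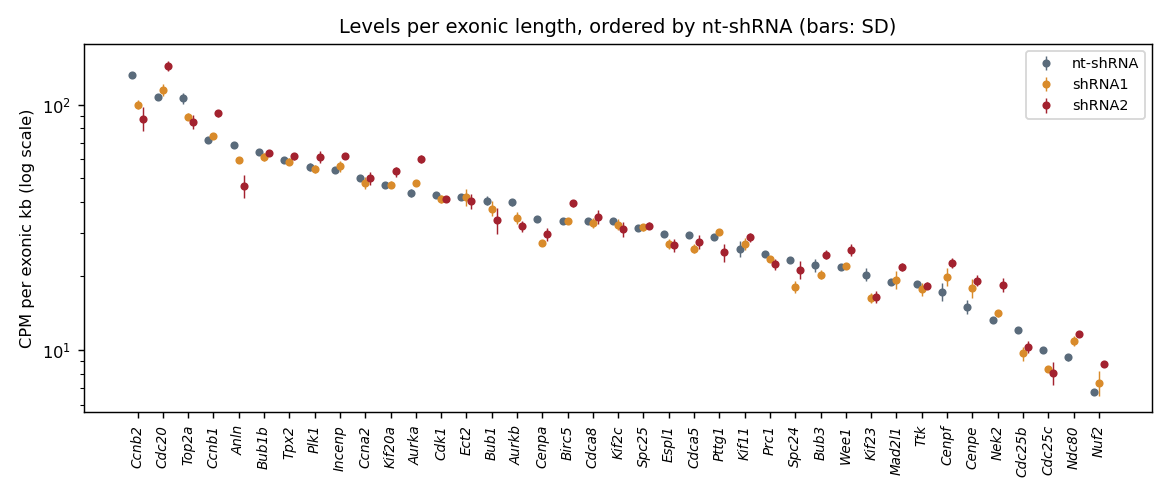
CPM per exonic kb (y axis, log scale) of the 39 members in nt-shRNA (n = 2), shRNA1 (n = 3) and shRNA2 (n = 3), as means with SD, ordered by nt-shRNA. Levels run from 132 (Ccnb2) to 6.76 (Nuf2) in nt-shRNA cells, and Cdc20 is highest with shRNA2 at 144.

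The promoter letters were set beside the calls, again as a description. With shRNA2, the CHR letters stood in 4 of the 10 higher members with a window, in 7 of the 8 lower ones and in 13 of the 13 that were not called. CCAAT stood in 6 of 10, 6 of 8 and 11 of 13. Raised members without CHR letters were *Ccnb1*, *Nek2*, *Birc5*, *Mad2l1*, *Cenpe* and *Nuf2*, and raised members with them *Aurka*, *Cdc20*, *Cenpf* and *Ndc80*. *Pttg1* was the lowered member without them. Among the printed windows, raised *Ccnb1* lacks the CHR letters and lowered *Ccnb2* has them, but raised *Cdc20* has them too. As all 13 uncalled members had them, the letters do not mark lowered members. No match says only that these letters are not in the window of 300 bases.

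**Figure D5:**
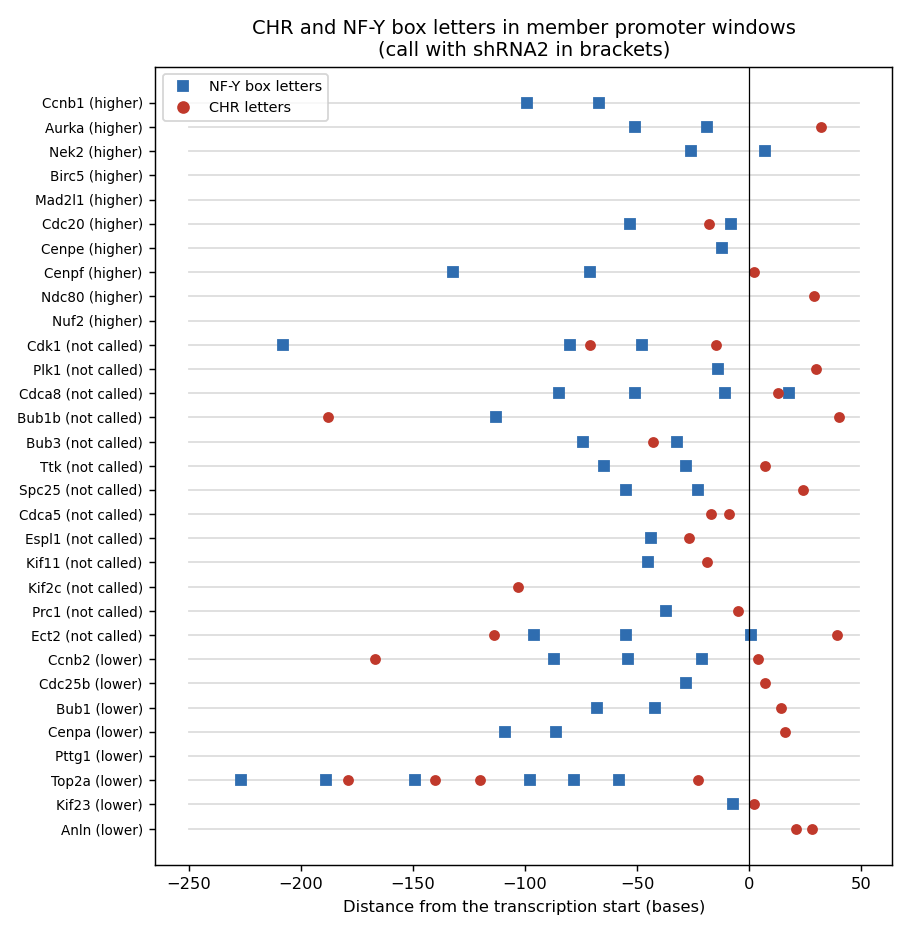
Positions of NF-Y box letters (squares) and CHR letters (circles) relative to the transcription start (x axis, bases) in the promoter windows of 31 members, with the call with shRNA2 in brackets. CHR letters stand in 4 of 10 higher, 13 of 13 not called and 7 of 8 lower members, most of them near the start.

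The members lie on 15 chromosomes and differ in gene structure. Exonic length ran from 1531 bases (*Ccnb2*) to 15433 (*Cenpf*), the span from 4.45 kb (*Cdc20*) to 61.08 kb (*Cenpe*), and the number of introns in the principal transcript from 3 (*Birc5*) to 45 (*Cenpe*). Higher, lower and uncalled members with shRNA2 had median exonic lengths of 4338, 4636.5 and 4798 bases and medians of 10, 14.5 and 11 introns, and an intron under 200 bases was present in 9 of 13, 7 of 10 and 13 of 16. The Spearman correlation of the log2 fold change with the share of introns under 200 bases was -0.36 with shRNA1 and -0.28 with shRNA2 over the 39 members, and with the number of introns 0.02 and -0.14. These values are over genes and carry no test. Another annotated gene overlaps 20 of the members, in 8 of them a protein-coding gene on the other strand, and fragments shared between overlapping genes were not counted.

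The other genes of the pathway, 146 in 7 lists with 145 tested, had members called in both directions. With shRNA1, 20 (13.8%) were higher and 23 (15.9%) lower, where 13.8% and 17.1% of all genes were. With shRNA2, 50 (34.5%) were higher and 36 (24.8%) lower, where 27.2% and 28.7% of all genes were. Between the hairpins, 39 (26.9%) were higher and 12 (8.28%) lower with shRNA2, where 16.9% and 18.7% of all genes were. The list medians were -0.01, 0.07 and 0.09, and those of all genes -0.01, 0 and 0. The counts of the single lists stand beside these shares of all genes and carry no test. Of 23 transcriptional regulators of mitotic genes, 10 (43.5%) were higher and 7 (30.4%) lower with shRNA2 (median 0.11), and 5 (21.7%) and 4 (17.4%) with shRNA1 (median -0.01). *Foxm1*, the activator of many genes of G2 and mitosis, was at 61.6 and 64.6 CPM with nt-shRNA, at 84.8, 87 and 80.7 with shRNA1 and at 108, 121 and 111 with shRNA2. Its groups did not overlap, and it rose by 0.41 ± 0.07 (edgeR adjusted p = 0.000144) and 0.85 ± 0.07 (edgeR adjusted p = 6.76e-09). *Rbl1*, the gene of the pocket protein p107, fell with shRNA2 (-0.52 ± 0.07, edgeR adjusted p = 8e-06).

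Of 35 other kinetochore and CENP-A loading genes, 14 (40%) were higher and 8 (22.9%) lower with shRNA2 (median 0.07), and 5 (14.3%) and 6 (17.1%) with shRNA1 (median 0.02). *Hjurp*, the chaperone that deposits CENP-A, was at 364 and 360 CPM with nt-shRNA, at 269, 271 and 271 with shRNA1 and at 265, 280 and 283 with shRNA2. It fell, as *Cenpa* did, with both hairpins (-0.42 ± 0.06, edgeR adjusted p = 2e-05, and -0.39 ± 0.06, edgeR adjusted p = 9.72e-06). *Mad1l1*, whose protein recruits MAD2 to kinetochores, was at 31.1 and 33 CPM with nt-shRNA, at 42.8, 43.5 and 43 with shRNA1 and at 57.9, 62.6 and 55.4 with shRNA2, a rise of 0.43 ± 0.08 (edgeR adjusted p = 0.000284) and 0.87 ± 0.08 (edgeR adjusted p = 1.66e-08).

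Of 16 genes for cohesin and its regulators, 8 (50%) were higher and 2 (12.5%) lower with shRNA2 (median 0.18), where 27.2% and 28.7% of all genes were, and 4 (25%) and 1 (6.25%) with shRNA1 (median 0.12), where 13.8% and 17.1% were. *Haspin*, the histone kinase that helps to place the passenger complex, rose by 0.40 ± 0.09 and 0.87 ± 0.09 (edgeR adjusted p = 0.0026 and 2.2e-07), and *Esco2*, the cohesin acetyltransferase of S phase, fell (-0.27 ± 0.08 and -0.55 ± 0.08, edgeR adjusted p = 0.0151 and 1.47e-05). Of 18 genes of the anaphase-promoting complex and its partners, 4 (22.2%) were higher and 6 (33.3%) lower with shRNA2 (median -0.12), and 2 (11.1%) and 5 (27.8%) with shRNA1 (median -0.13). The genes with the smallest adjusted p under shRNA2 in each direction were *Cdc27* and *Anapc11*, the RING subunit. *Cdc27* rose (0.29 and 0.50, edgeR adjusted p = 0.00756 and 1.81e-05), and *Anapc11* fell (-0.23 and -0.47, edgeR adjusted p = 0.0249 and 3.14e-05). Of 8 condensin genes, 1 (12.5%) was higher and 2 (25%) lower with shRNA2, and 2 (25%) were lower with shRNA1, with *Ncaph2* at -0.35 and -0.45 (edgeR adjusted p = 0.000259 and 4.45e-06) and *Smc2* called higher with shRNA2 (0.16, edgeR adjusted p = 0.0474).

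Of 32 centrosome and other spindle genes, 9 (28.1%) were higher and 8 (25%) lower with shRNA2 (median 0.04), and 3 (9.38%) and 1 (3.12%) with shRNA1 (median 0). *Haus2*, of the augmin complex, rose by 0.26 and 0.69 (edgeR adjusted p = 0.0166 and 5.1e-07), and *Nedd1*, which brings gamma-tubulin to the spindle, fell with shRNA2 (-0.33, edgeR adjusted p = 0.00161). Of 13 tested genes for other kinases and phosphatases of mitotic entry and exit, 4 (30.8%) were higher and 3 (23.1%) lower with shRNA2 (median 0.13), and 1 (7.69%) and 4 (30.8%) with shRNA1 (median -0.09). *Cdc25a*, a phosphatase of the same family as *Cdc25b* and *Cdc25c*, was at 154 and 141 CPM with nt-shRNA, at 116, 118 and 126 with shRNA1 and at 112, 112 and 116 with shRNA2, and so fell with both hairpins as they did (-0.30 and -0.38, edgeR adjusted p = 0.00119 and 3.52e-05). *Cdc14a*, an exit phosphatase, had few counts, at 4.09 and 4.49 CPM with nt-shRNA and 7.94 to 8.21 with shRNA2, and rose by 0.57 ± 0.15 and 0.91 ± 0.15 (edgeR adjusted p = 0.00857 and 5.04e-05).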

How the data were processed

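Poly(A) RNA of 8 R1 mESC libraries was sequenced in paired-end mode. Alignment to mm10 (GRCm38) was done by the authors with STAR, who deposited raw counts per gene from featureCounts 1.6.2 on GENCODE M24 exons, without strand, leaving out multi-mapping and shared fragments; the deposited gene length, in bases, was used for levels per length. Samples were matched to columns by title. Of 55385 genes, 55144 were given a symbol through their Ensembl identifier in GENCODE M21. Members and lists were chosen with earlier results of these data known.

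The analysis of counts used edgeR 4.0.16 (R 4.3.3). Genes passing filterByExpr by group (minimum count 10, 17445 genes) were scaled by TMM, with factors from 0.9353 to 1.036, and tested with glmQLFit and glmQLFTest in 1 fit of all 8 libraries without a block, each group having its own coefficient. The common biological coefficient of variation was 0.0638. Calls needed a Benjamini-Hochberg adjusted p under 0.05, and the standard error came from the F statistic. The code was tested on simulated counts. Pairs of libraries within a group differed by chi-square values per gene of 2.92 to 11.27, so none repeats another. The authors' own test was DESeq2. Alternatives were DESeq2 1.42.0, its size factors, library size alone, other filters, a replicate block, only the groups compared, and each library left out. Named genes were all members, *Eftud2*, and in each list the higher and lower gene with the smallest adjusted p under shRNA2. Library values were set to be given for called members with a log2 change of at least 0.5, *Cdca5* and the smallest changes; those of other members were added after their values were seen. Promoters were read with Python 3.11.15 and pandas 2.3.3.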

Additional observations from a re-analysis of the deposited data

How the results depend on the processing

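Of the members called in the fit reported, 4 of 11 kept their call with shRNA1 under all 15 alternatives (*Ccnb2*, *Cenpa*, *Kif23* and *Spc24*), 15 of 23 with shRNA2 (*Anln*, *Aurka*, *Aurkb*, *Birc5*, *Ccnb1*, *Ccnb2*, *Cdc20*, *Cdc25c*, *Cenpe*, *Cenpf*, *Kif23*, *Ndc80*, *Nek2*, *Nuf2* and *Top2a*) and 9 of 16 between the hairpins (*Anln*, *Aurka*, *Birc5*, *Bub3*, *Ccnb1*, *Cdc20*, *Nek2*, *Pttg1* and *Wee1*), and no called member changed direction. On library size alone the members had 9 higher and 4 lower calls with shRNA1 and a median of 0.09, and with shRNA2 17 higher and 6 lower calls and a median of 0.08. Leaving out each library in turn gave 0 to 3 higher and 5 to 10 lower members with shRNA1 (2948 to 5903 of all genes called), 10 to 16 and 7 to 13 with shRNA2 (7719 to 10017), and 8 to 12 and 2 to 4 between the hairpins (4306 to 6437). The higher count with shRNA1 was 0 without shRNA1 replicate 1 or nt-shRNA replicate 1, where edgeR gave 3 and 0 higher members at an unadjusted p under 0.05, and DESeq2 gave 3 with all libraries. The cause of these shifts was not tested.

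Uncalled members near 0 changed sign under some settings. On library size alone, log2 values with shRNA1 were 0.04 for *Ccna2*, 0.06 for *Cdk1*, 0.1 for *Plk1*, 0.09 for *Cdca8*, 0.01 for *Bub1*, 0.05 for *Bub1b*, 0.04 for *Ttk*, 0.07 for *Kif2c*, 0.1 for *Tpx2* and 0.05 for *Prc1*. With shRNA2 they were 0.08 for *Ccna2*, 0.05 for *Cdk1*, 0.08 for *Bub1b*, 0.06 for *Ttk* and 0.03 for *Ect2*, and between the hairpins -0.02 for *Cdk1* and -0.01 for *Kif23*. With at least 10 counts in every library they were 0.01 for *Plk1* and *Tpx2* with shRNA1 and 0.02 for *Ccna2* and *Bub1b* with shRNA2. With only the 2 groups compared, *Plk1* was at 0.01 with shRNA1. With no filter, *Cdk1* and *Kif23* were at -0.01 between the hairpins. Without single libraries, the lowest and highest values crossed 0 with shRNA1 for *Mad2l1* (-0.04 to 0.08), *Spc25* (-0.02 to 0.04), *Wee1* (-0.01 to 0.03), *Kif11* (-0.01 to 0.14), *Cdca8* (-0.06 to 0.01), *Tpx2* (-0.04 to 0.01) and *Plk1* (-0.06 to 0.02), with shRNA2 for *Ccna2* (-0.05 to 0.04) and *Bub1b* (-0.03 to 0.02), and between the hairpins for *Cdk1* (-0.02 to 0.03), *Kif23* (-0.03 to 0.05) and *Espl1* (-0.06 to 0.03).

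Replicates share numbers across groups, but the deviations of the 7 same-numbered pairs correlated only from -0.026 to 0.074. The numbers were therefore not taken as pairs, although 4 of 6 shRNA libraries correlated best with a library of their own number. Same-numbered pairs of the 2 hairpins were at 0.022, 0.057 and 0.074. With 2 controls, the deviations of these mirror each other, so pairs with nt-shRNA cannot settle the question. For its qPCR, the paper compared each shRNA replicate with the nt-shRNA replicate that corresponds to it. In the fit with a replicate block, the members had 2 higher and 10 lower calls with shRNA1 (6018 of all genes called), 13 and 13 with shRNA2 (10034) and 14 and 3 between the hairpins (6518). DESeq2 gave 3 and 8 (4583), 13 and 10 (8737), and 14 and 3 (5387). With 2 controls, an exact permutation test of a single gene could not have passed the threshold, and every call draws on a spread pooled over genes.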

Other observations

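Further ratios of counts per exonic base, formed after the values of their genes had been seen, are given as values. *Wee1* to *Cdc25c*, a kinase and a phosphatase with opposite action on CDK1, was 2.12 and 2.26 in the controls. It was 2.64, 2.69 and 2.53 in the shRNA1 libraries, and 3.31, 3.6 and 2.73 in the shRNA2 libraries. Every knockdown library was thus above both controls. *Birc5* to *Aurkb*, partners in the passenger complex, was 0.875 and 0.806 in the controls, 0.995, 1.04 and 0.881 in the shRNA1 libraries, and 1.27, 1.23 and 1.22 in the shRNA2 libraries, and the 3 groups did not overlap. *Pttg1* to *Espl1*, inhibitor and protease, was 0.946 and 0.994 in the controls, 1.14, 1.14 and 1.08 in the shRNA1 libraries, and 0.966, 0.875 and 0.958 in the shRNA2 libraries, where the shRNA1 libraries stood above all others and the shRNA2 libraries overlapped the controls.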
